A study of Mus musculus with 8 samples.

Results

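The comparison set Id2-GFP+ CDP against Id2-GFP- CDP, progenitor cells sorted from mouse bone marrow as positive or negative for a green fluorescent reporter of Id2. The members are the arrays titled for either population, 2 for each, which are 4 of the 8 arrays measured. CDP stands for common dendritic cell progenitor. The other 4 arrays hold Id2-GFP+ pre-CD8 (2 arrays) and Id2-GFP- pre-CD8 (2 arrays), a further progenitor that the labels name and do not define, and they entered the statistical fit and 1 comparison at the end. The titles of all 4 CDP samples name Id2-GFP, and their sources and descriptions name the Id2-IRES-GFP reporter mouse. The genotype field reads heterozygous Zbtb46-GFP for both Id2-GFP+ CDP samples and heterozygous Id2-IRES-GFP for both Id2-GFP- CDP samples. In every CDP difference below the reporter class and the entry of the genotype field therefore cannot be told apart. The labels name no treatment, age, strain or sort gate, and nothing there says that the replicates came from separate animals. P-values then measure the spread between arrays, possibly only a technical one.

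Id2 encodes a helix-loop-helix protein without a DNA-binding region. It pairs with E proteins (Tcf3, Tcf4 and Tcf12), which are activating basic helix-loop-helix transcription factors, and keeps them off DNA. In the dendritic lineage E protein activity, Tcf4 foremost, sustains plasmacytoid dendritic cells (pDC), whereas Id2 is required for cDC1, the conventional dendritic cells that cross-present antigen and depend on Irf8 and Batf3. The CDP is known to give rise to both kinds, and expresses the receptors Flt3, Csf1r and Kit.

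The cells carried transcripts of receptors that the CDP expresses, Flt3, Csf1r and Kit. Flt3 had log2 intensities of 11.34 and 10.73 in Id2-GFP+ CDP, against 11.71 and 11.44 in Id2-GFP- CDP. Csf1r, the receptor of macrophage colony-stimulating factor, had 10.53 and 10.14 in Id2-GFP+ CDP, against 11.11 and 10.97 in Id2-GFP- CDP, and Kit, the receptor of stem cell factor, had 10.89 and 9.87 in Id2-GFP+ CDP, against 10.82 and 9.73 in Id2-GFP- CDP. Flt3 and Kit were no lower in pre-CD8 cells of the matching reporter class, so they do not single out the CDP here. Mean Flt3 was 11.29 in reporter-positive and 12.4 in reporter-negative pre-CD8 cells, and mean Kit was 11.23 and 10.96. Csf1r was lower there, with means of 8.01 and 9.10. Mean intensity divided the arrays of the whole series into a brighter and a dimmer set, with 1 array of each group in each. In each pair of CDP values the brighter array of a group therefore comes first and the dimmer array second. The linear mean was 475 and 402 in Id2-GFP+ CDP, and 478 and 414 in Id2-GFP- CDP. The brighter Id2-GFP+ CDP array is replicate 2 of its label and the brighter Id2-GFP- CDP array is replicate 1. Xist was at 12.46 and 12.08 in Id2-GFP+ CDP, against 12.53 and 12.25 in Id2-GFP- CDP, and the Y-linked genes Kdm5d, Uty and Eif2s3y lay between 3.15 and 3.91 on all 4 arrays. Xist, Uty and Eif2s3y overlapped between the groups, and Kdm5d, with 3.70 and 3.67 in Id2-GFP+ CDP, against 3.85 and 3.75 in Id2-GFP- CDP, did not pass the test.

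Id2 itself was the first gene examined. Its log2 intensity was 9.26 and 9.77 in Id2-GFP+ CDP, against 5.14 and 6.30 in Id2-GFP- CDP. Both Id2-GFP+ CDP arrays lay far above both Id2-GFP- CDP arrays, by 4.12 between the brighter arrays and 3.47 between the dimmer ones. The difference was 3.79 ± 0.30 (log2, Id2-GFP+ minus Id2-GFP-, ± SE of the fit), a 13.9-fold change, with an adjusted p of 4.07e-05 by limma with the array set as a block. The transcript therefore followed the titles. Of the remaining Id genes, Id1 had a difference of 0.57 ± 0.16, Id3 of 0.01 ± 0.16 and Id4 of -0.04 ± 0.12, and none of these passed the test.

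**Figure D1:**
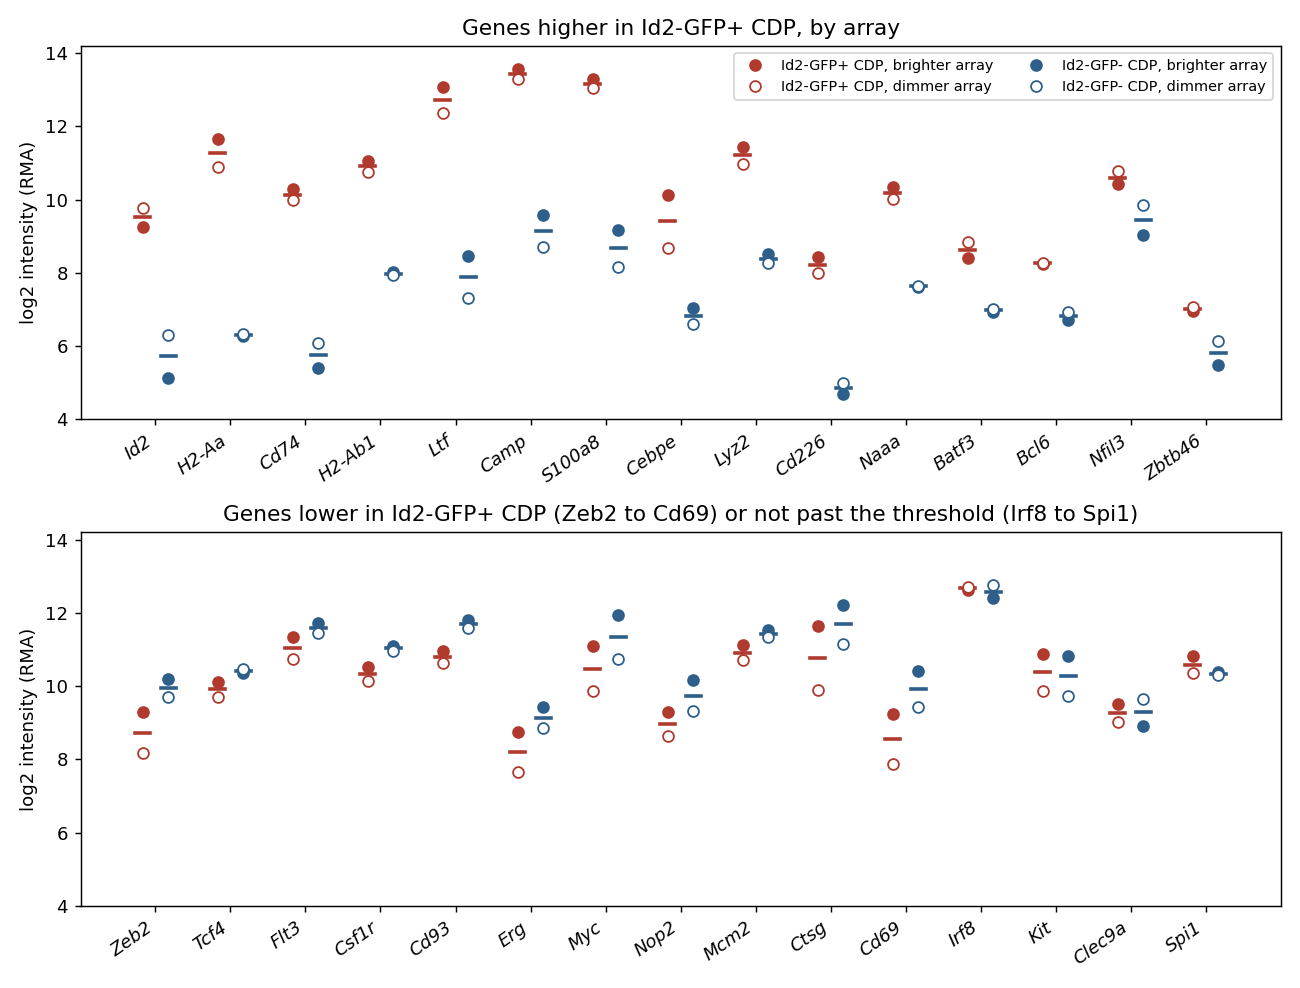
Log2 intensity of 30 genes on each CDP array, with filled points for the brighter and open points for the dimmer array of a group and a bar at the mean of 2 arrays, Id2-GFP+ CDP left of Id2-GFP- CDP. Id2 and the 14 genes beside it lay higher on both Id2-GFP+ CDP arrays, Zeb2 to Cd69 fell by smaller amounts and at times overlapped, and Irf8, Kit, Clec9a and Spi1 did not pass the test.

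Across 19938 genes, 735 rose in Id2-GFP+ CDP (3.69% of those tested) and 831 fell (4.17%) at an adjusted p under 0.05, and 4197 had an unadjusted p under 0.05. Every list count below is to be read beside these shares. With no such block 119 rose (0.597%) and 0 fell (0.0%) by the same limma test, with 1098 at an unadjusted p under 0.05, and all 119 were among the 735. Rises were larger than falls. Of the 735 rises, 310 reached 1 on the log2 scale and 96 reached 2, with a median of 0.85, whereas 39 of the 831 falls reached 1, 0 reached 2 and their median was -0.59. The median difference over all genes was -0.0016. Every called gene changed in one direction in both array pairs. The fit uses these pairs as its block and favours such genes, so this gives no separate support. The count of rises was 506 and 608 without Id2-GFP+ CDP replicates 1 and 2, and 199 and 476 without Id2-GFP- CDP replicates 1 and 2. Falls numbered 141 and 977 without the Id2-GFP+ CDP replicates, and 48 and 96 without the Id2-GFP- CDP replicates. In all 8 fits that left out 1 array, 189 rises and 21 falls kept their calls.

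**Figure D2:**
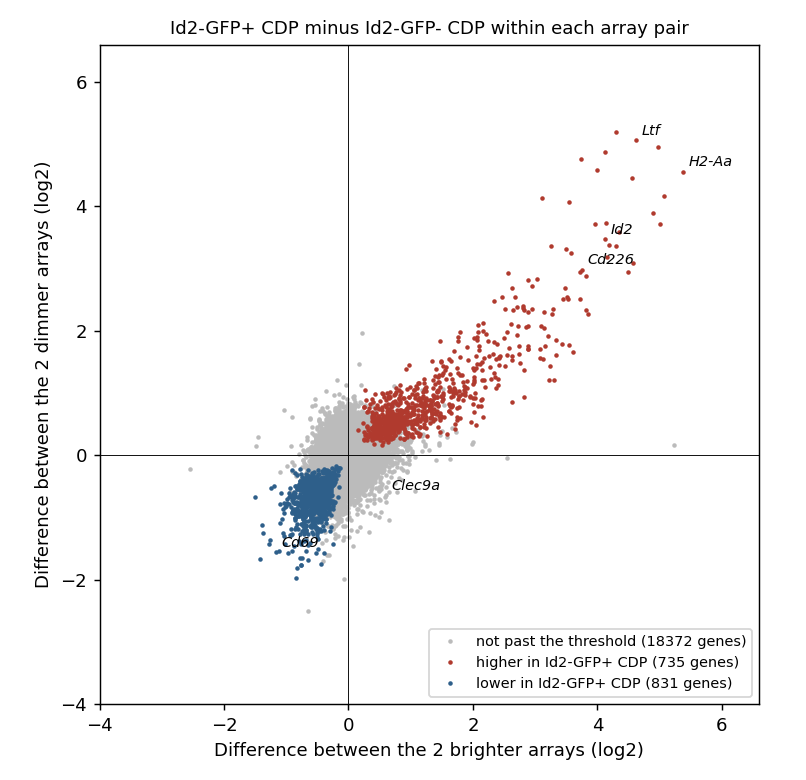
Difference between Id2-GFP+ CDP and Id2-GFP- CDP in log2 intensity for each of 19938 genes, on the horizontal axis between the brighter arrays and on the vertical axis between the dimmer arrays. Red points are the 735 genes that rose and blue points the 831 that fell, and the red points reach much farther from 0 than the blue ones.

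The largest rise was that of H2-Aa, the alpha chain of the MHC class II molecule I-A. Next in size came the chitinase-like protein Chil3 at 4.96 ± 0.18, lactoferrin (Ltf) at 4.84 ± 0.19 and lipocalin 2 (Lcn2), which binds bacterial siderophores, at 4.75 ± 0.29. Plbd1, a phospholipase B-like protein, had 11.66 and 11.40 in Id2-GFP+ CDP, against 6.59 and 7.23 in Id2-GFP- CDP. Ifi205, of the interferon-inducible Ifi200 family and a marker of cDC1, had 10.90 and 10.94 in Id2-GFP+ CDP, against 5.89 and 7.22 in Id2-GFP- CDP. Lrg1, a secreted leucine-rich glycoprotein, rose by 3.97 ± 0.18. For these genes the lower Id2-GFP+ CDP array exceeded the higher Id2-GFP- CDP array, which was a condition for naming them. They kept their calls without the block and without any single array.

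Transcription factors changed by smaller amounts and in both directions. Of 31 transcription factors of dendritic cells other than Id2, 7 rose and 3 fell, beside 3.69% and 4.17% over all genes. Without the block 2 rose, Batf3 and the repressor Bcl6, and 0 fell. Batf3, a partner of Irf8 that cDC1 require, had 8.41 and 8.85 in Id2-GFP+ CDP, against 6.94 and 7.01 in Id2-GFP- CDP, a difference of 1.65 ± 0.15 (adjusted p 0.000129). Irf8, which cDC1 and their progenitors need, had 12.62 and 12.71 in Id2-GFP+ CDP, against 12.39 and 12.77 in Id2-GFP- CDP, and its difference of 0.08 ± 0.14 did not pass the test (adjusted p 0.821). Irf8 was bright on all 4 arrays and the groups overlapped.

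Zeb2 and Nfil3, known from work in mice to act against each other upstream of Id2 in these progenitors, moved oppositely. Neither passed without the block (adjusted p by limma 0.577 for Zeb2 and 0.882 for Nfil3). Zeb2, a repressor that favours pDC and monocyte fates, had 9.30 and 8.16 in Id2-GFP+ CDP, against 10.20 and 9.70 in Id2-GFP- CDP, and fell by 1.22 ± 0.16 (adjusted p 0.00172). Both of its Id2-GFP+ CDP arrays were below both Id2-GFP- CDP arrays. Nfil3, which is needed for cDC1, had 10.42 and 10.78 in Id2-GFP+ CDP, against 9.04 and 9.86 in Id2-GFP- CDP, and rose by 1.15 ± 0.17. The related repressor Zeb1 rose by 1.14 ± 0.14. Zbtb46, a factor of committed conventional dendritic cells and the gene of the other reporter in the genotype field, had 6.96 and 7.08 in Id2-GFP+ CDP, against 5.48 and 6.13 in Id2-GFP- CDP, and rose by 1.21 ± 0.22. The repressor Bcl6 rose by 1.43 ± 0.15, Mycl, a Myc relative used by dendritic cells, by 0.73 ± 0.17, and Irf4, a factor of cDC2, by 0.53 ± 0.14. Runx1 fell by 0.69 ± 0.15 and the receptor and regulator Notch1 by 0.83 ± 0.17. Calls were lost for Nfil3 and Zbtb46 without replicate 1 of Id2-GFP- CDP, Notch1 without replicate 1 of Id2-GFP+ CDP or replicate 2 of Id2-GFP- CDP, and Runx1 without replicate 1 of Id2-GFP+ CDP or either array of Id2-GFP- CDP. The same held for Mycl without any single CDP array, and Irf4 without replicate 1 of Id2-GFP+ CDP, either array of Id2-GFP- CDP or either array of Id2-GFP- pre-CD8, and the highest adjusted p among them was 0.281.

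The E proteins, which Id2 binds, changed less than Id2. Tcf4 had 10.12 and 9.71 in Id2-GFP+ CDP, against 10.36 and 10.47 in Id2-GFP- CDP, and fell by 0.50 ± 0.12 (adjusted p 0.0344). Tcf3 had a difference of -0.22 ± 0.13 and Tcf12 of -0.19 ± 0.11, and neither passed. Among 18 helix-loop-helix genes and partners apart from Id2, 1 rose and 4 fell, beside 3.69% and 4.17% over all genes. The riser was Bhlhe40, a repressor, at 0.67 ± 0.15. The other falling genes were Mxd4, an antagonist of Myc, by 0.57 ± 0.14, Mitf, a factor of lysosomal and mast cell genes, by 0.61 ± 0.16, and Ldb1, an adaptor that bridges factors bound to DNA, by 0.50 ± 0.11. Leaving out single arrays ended the calls of Tcf4 without replicate 1 of Id2-GFP+ CDP or either array of Id2-GFP- CDP, Bhlhe40, Mitf and Ldb1 without any single CDP array, and Mxd4 without replicate 1 of Id2-GFP+ CDP, either array of Id2-GFP- CDP or either array of Id2-GFP- pre-CD8, and the highest adjusted p among them was 0.328.

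MHC class II genes present peptides to CD4+ T cells and are switched on by the coactivator Ciita, which joins factors assembled on a conserved promoter module that ends in a Y box. The promoters of H2-Aa and H2-Eb1 are shown because both genes rose and both hold this box. Both are the 150 bases before the gene start, on GRCm38.p6 from RefSeq, and the capitals mark the Y box TGATTGG.
H2-Aa, chr17:34287824-34287973, minus strand: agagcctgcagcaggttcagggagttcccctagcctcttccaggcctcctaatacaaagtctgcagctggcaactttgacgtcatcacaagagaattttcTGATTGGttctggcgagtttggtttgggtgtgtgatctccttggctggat
H2-Eb1, chr17:34305717-34305866, plus strand: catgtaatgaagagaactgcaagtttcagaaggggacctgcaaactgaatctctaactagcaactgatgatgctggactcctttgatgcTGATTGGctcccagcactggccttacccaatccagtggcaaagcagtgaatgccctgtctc
The Y box was searched on both strands in 300 bases around each gene start, from 250 before to 50 after, and it stood in 6 of 9 promoters of class II genes in the table (66.7%) and in 7.8% of 32851 promoters. The other genes with it were H2-Eb2, H2-Oa, H2-Ob and Rfx5. Of the 6 genes with it 3 rose, and H2-DMa rose with the box in neither of its promoters.

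Of 12 class II genes 7 rose and 0 fell, and 5 rose without the block. H2-Aa had 11.66 and 10.90 in Id2-GFP+ CDP, against 6.28 and 6.34 in Id2-GFP- CDP, a difference of 4.97 ± 0.19 (adjusted p 3.35e-07). H2-Ab1, its beta chain, had 11.06 and 10.77 in Id2-GFP+ CDP, against 8.03 and 7.93 in Id2-GFP- CDP, and H2-Eb1, the beta chain of I-E, had 9.81 and 9.07 in Id2-GFP+ CDP, against 6.99 and 6.73 in Id2-GFP- CDP. Both Id2-GFP+ CDP arrays stood above both Id2-GFP- CDP arrays for each chain. The invariant chain Cd74, which guides class II molecules to endosomes, had 10.29 and 9.99 in Id2-GFP+ CDP, against 5.40 and 6.09 in Id2-GFP- CDP, and rose by 4.40 ± 0.24. Ciita, the coactivator, had 7.61 and 7.22 in Id2-GFP+ CDP, against 5.55 and 5.31 in Id2-GFP- CDP, and rose by 1.98 ± 0.24. The peptide-loading genes moved less, with H2-DMa, which loads peptides, at 0.32 ± 0.08 and H2-Oa, which restrains loading, at 0.82 ± 0.17. The promoter factors Rfx5, Rfxap and Rfxank had differences of -0.18, 0.07 and -0.05, and none passed. H2-Eb2 had 0.12 ± 0.20 and did not pass, although its promoter holds the Y box. The threshold was no longer passed by H2-Oa without replicate 1 of Id2-GFP+ CDP or replicate 1 of Id2-GFP- CDP, and H2-DMa without any single CDP array or either array of Id2-GFP- pre-CD8, and the highest adjusted p among them was 0.37. Of 13 class I processing genes, 1 rose (B2m, the light chain of class I, at 0.30 ± 0.06) and 1 fell (the chaperone Calr, by 0.42 ± 0.09). Over all genes 3.69% rose and 4.17% fell. Single arrays decided the calls of B2m, lost without replicate 2 of Id2-GFP+ CDP or either array of Id2-GFP- CDP, and Calr, lost without any single CDP array, and the highest adjusted p among them was 0.2.

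Among lysosomal enzymes, which trim antigen, 5 of 26 rose and 2 fell. After Plbd1, the rises were Naaa, an amidase expressed by cDC1, at 2.55 ± 0.17, the thiol reductase Ifi30 at 1.45 ± 0.25, Ctsw at 0.66 ± 0.15 and the cathepsin inhibitor Cst3 at 0.55 ± 0.05. The list median was 0.05. Less stable were the calls of Ifi30, lost without replicate 1 of Id2-GFP- CDP, and Ctsw, lost without any single CDP array, and the highest adjusted p among them was 0.266.

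Markers of cDC1 rose in part. Of 25 measured, 15 rose and 0 fell with a median of 0.85, against a median of -0.0016 over all genes, and 5 rose without the block. Cd226, an adhesion receptor, had 8.44 and 7.99 in Id2-GFP+ CDP, against 4.68 and 5.01 in Id2-GFP- CDP, and rose by 3.37 ± 0.19. Tlr3, a receptor of double-stranded RNA, had 7.75 and 7.30 in Id2-GFP+ CDP, against 5.15 and 5.18 in Id2-GFP- CDP, and rose by 2.36 ± 0.25. The groups did not overlap for either gene. Wdfy4, needed for cross-presentation, rose by 0.85 ± 0.07, Rab7b, an endosomal GTPase, by 1.36 ± 0.19, Cd24a by 0.69 ± 0.07 and Tlr12 by 1.27 ± 0.28. Clec9a and Xcr1, also on this list, did not pass. Clec9a was bright in both groups, whereas Xcr1 was dim in both. Clec9a had 9.52 and 9.01 in Id2-GFP+ CDP, against 8.92 and 9.65 in Id2-GFP- CDP, a difference of -0.02 ± 0.33, and Xcr1 had 4.86 and 4.89 in Id2-GFP+ CDP, against 4.95 and 4.61 in Id2-GFP- CDP, a difference of 0.10 ± 0.17. Cadm1 (0.08), Itgae (-0.03) and Cd8a (-0.14) did not pass either. The count of cDC1 rises was 12 and 13 without Id2-GFP+ CDP replicates 1 and 2, and 8 and 13 without Id2-GFP- CDP replicates 1 and 2.

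Markers of other dendritic cells were mixed. Of 22 markers of cDC2, the CD4+ T cell-priming class, 8 rose and 1 fell, with a median of 0.15. Without the block 1 rose. Clec4a2, an inhibitory C-type lectin, had 9.20 and 8.50 in Id2-GFP+ CDP, against 4.90 and 5.14 in Id2-GFP- CDP, and rose by 3.83 ± 0.23. Cd209a rose by 2.66 ± 0.36, Cd7 by 2.21 ± 0.38, Itgam (CD11b) by 1.68 ± 0.17 and Klf4 by 1.27 ± 0.32. Sirpa, a defining surface protein of cDC2, had a difference of -0.10 ± 0.15 and did not pass. Of 18 pDC markers 2 rose and 2 fell, beside 3.69% and 4.17% over all genes, and 0 passed without the block. Siglech, which defines pDC, had 8.12 and 8.13 in Id2-GFP+ CDP, against 8.20 and 9.50 in Id2-GFP- CDP, and its difference of -0.73 ± 0.37 did not pass. Bst2 fell by 0.48 ± 0.11 and Tcf4 fell as given, whereas Irf7 rose by 0.92 ± 0.24 and Cd209d by 1.58 ± 0.16. The shared conventional dendritic cell genes beside Zbtb46 and Batf3 that rose were Adam19 at 1.11 ± 0.21, Ap1s3 at 0.86 ± 0.17 and Nectin1 at 1.00 ± 0.17. Calls were lost for Nectin1 without replicate 1 of Id2-GFP- CDP, Bst2 without replicate 1 of Id2-GFP+ CDP or replicate 2 of Id2-GFP- CDP, and Adam19 without replicate 1 of Id2-GFP+ CDP or replicate 1 of Id2-GFP- CDP. The same held for Klf4 and Ap1s3 without either array of Id2-GFP+ CDP or replicate 1 of Id2-GFP- CDP, and Irf7 without either array of Id2-GFP+ CDP, replicate 1 of Id2-GFP- CDP or either array of Id2-GFP- pre-CD8, and the highest adjusted p among them was 0.37.

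**Figure D3:**
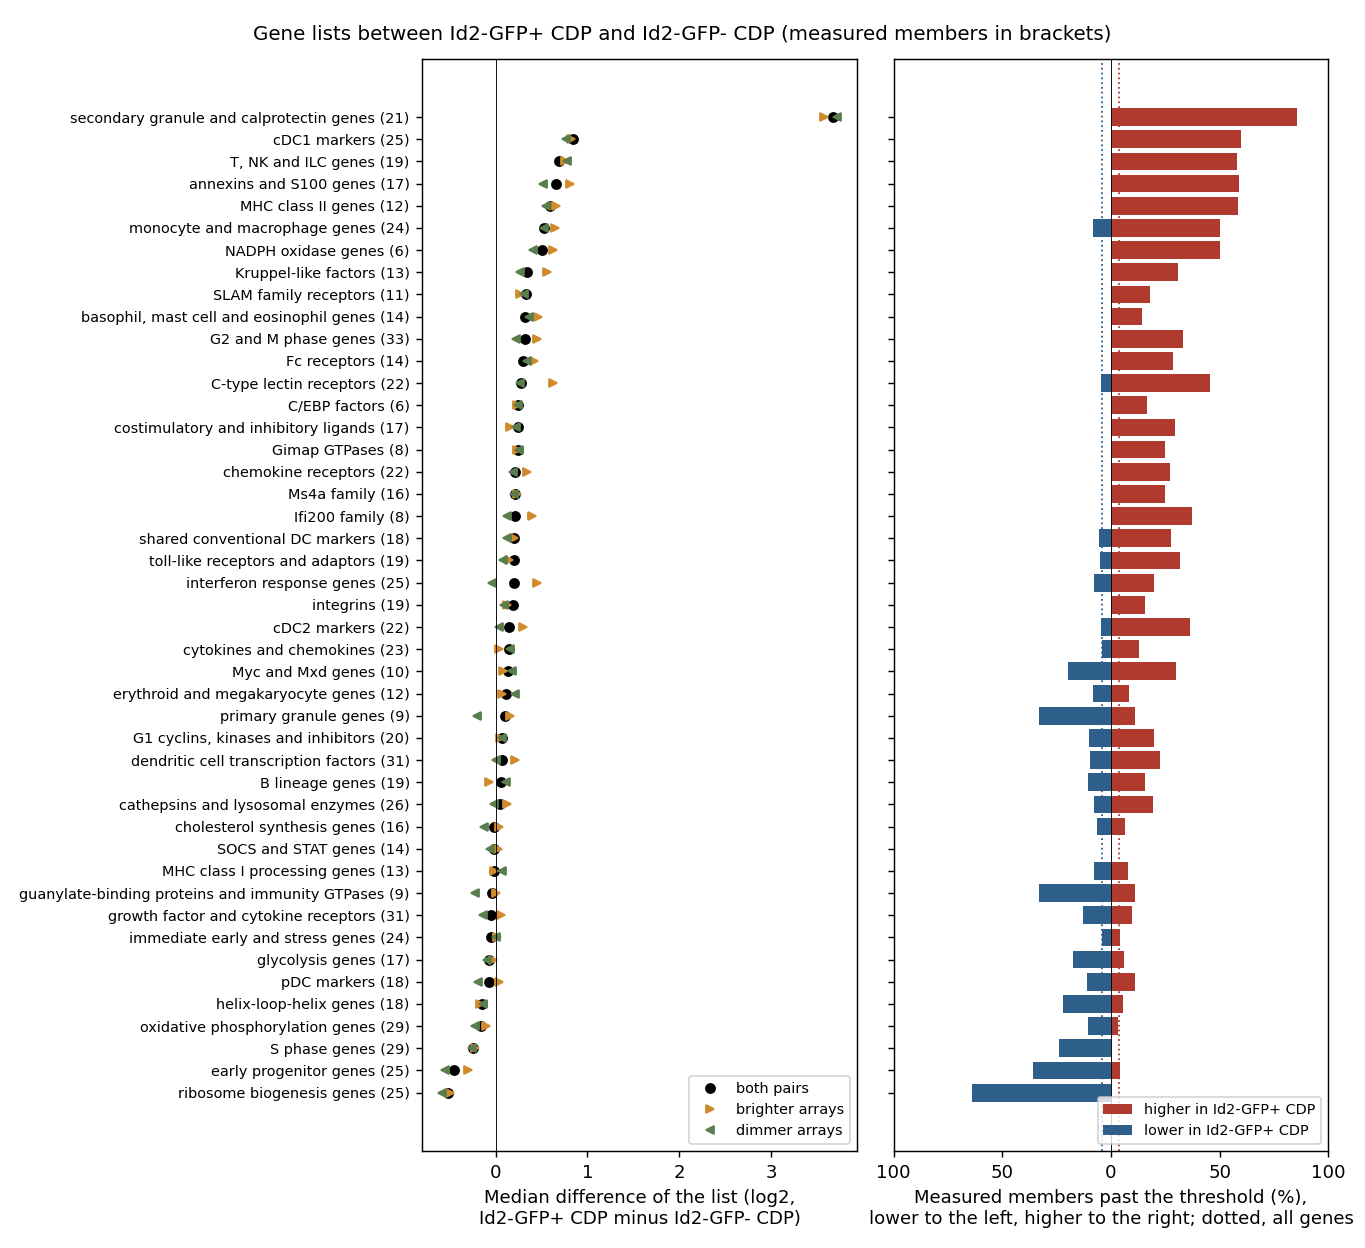
Median difference of each gene list on the left (log2, Id2-GFP+ CDP minus Id2-GFP- CDP, circles for both pairs and triangles for each pair of arrays), and on the right the percentage of measured members that rose (red) or fell (blue), with dotted lines at the share over all genes, 3.69% and 4.17%. Secondary granule genes stand apart at a median of 3.67, and ribosome biogenesis genes lie lowest at -0.51.

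Genes of neutrophil secondary granules and calprotectin formed the most strongly raised of the 46 lists by median. These proteins are made in quantity by maturing neutrophils, under C/EBP epsilon, and they are not markers of the CDP. Promoters of 3 such genes are shown, each the 150 bases before the gene start as above, because they hold the C/EBP core TTGCNNAA, which the capitals mark on either strand. They belong to lactoferrin, a ficolin that recognises microbial sugars (Fcnb), and the neutrophilic granule protein Ngp.
Ltf, chr9:111019142-111019291, plus strand: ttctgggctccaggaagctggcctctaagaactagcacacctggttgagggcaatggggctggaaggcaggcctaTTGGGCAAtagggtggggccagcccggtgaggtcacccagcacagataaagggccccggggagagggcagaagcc
Fcnb, chr2:28084879-28085028, minus strand: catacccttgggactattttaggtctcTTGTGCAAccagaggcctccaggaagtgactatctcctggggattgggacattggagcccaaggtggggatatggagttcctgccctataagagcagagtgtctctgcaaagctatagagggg
Ngp, chr9:110419658-110419807, plus strand: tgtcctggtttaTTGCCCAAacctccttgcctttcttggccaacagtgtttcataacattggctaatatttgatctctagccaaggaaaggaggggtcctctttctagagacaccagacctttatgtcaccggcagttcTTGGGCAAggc
Within 300 bases around the gene start the core stood in 8 of 19 secondary granule genes with a promoter in the table (42.1%) and in 10.8% of 32851 promoters. The other genes with it were Lcn2, S100a9, Mmp8, Anxa1 and Retnlg, and all 8 rose. Of the 11 genes without it 8 also rose.

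Of 21 secondary granule and calprotectin genes 18 rose and 0 fell, with a median difference of 3.67, and 17 rose without the block. Ltf had 13.09 and 12.38 in Id2-GFP+ CDP, against 8.47 and 7.32 in Id2-GFP- CDP, a difference of 4.84 ± 0.19 (adjusted p 4.05e-07). S100a8, a calprotectin subunit, had 13.30 and 13.05 in Id2-GFP+ CDP, against 9.17 and 8.17 in Id2-GFP- CDP, and its partner S100a9 had 13.23 and 13.06 in Id2-GFP+ CDP, against 9.69 and 8.98 in Id2-GFP- CDP. Camp, the cathelicidin antimicrobial peptide, had 13.58 and 13.30 in Id2-GFP+ CDP, against 9.59 and 8.72 in Id2-GFP- CDP. For all of these both Id2-GFP+ CDP arrays were above both Id2-GFP- CDP arrays. Fcnb had 11.34 and 9.89 in Id2-GFP+ CDP, against 6.79 and 5.42 in Id2-GFP- CDP, and Ngp had 13.50 and 13.15 in Id2-GFP+ CDP, against 10.38 and 9.02 in Id2-GFP- CDP. Mmp9, a gelatinase, rose by 3.03 ± 0.23, Mmp8, a collagenase, by 2.75 ± 0.14, the neutrophil surface protein Cd177 by 3.41 ± 0.15, the chemokine receptor Cxcr2 by 2.82 ± 0.23 and the peptidoglycan-binding Pglyrp1 by 4.25 ± 0.26. The 3 members that did not pass were Csf3r, the receptor of granulocyte colony-stimulating factor, at 0.34 ± 0.17, and the stefins Stfa2 at 0.16 ± 0.15 and Stfa3 at 0.34 ± 0.13. The count stayed at 18 without each array in turn.

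The summed linear intensity of the list was 86027 and 62585 in Id2-GFP+ CDP, against 7168 and 3839 in Id2-GFP- CDP. In sorted populations measured in bulk, more cells of a type and more RNA per cell cannot be told apart. The part of granulocytic transcripts in the other differences was not tested. Cebpe, which encodes C/EBP epsilon, had 10.14 and 8.69 in Id2-GFP+ CDP, against 7.04 and 6.62 in Id2-GFP- CDP, and rose by 2.58 ± 0.25 (adjusted p 0.000203). The other 5 C/EBP factors did not pass, with Cebpa at -0.10 ± 0.13 and Cebpb at -0.12 ± 0.13. Genes outside the list are given as examples that were chosen after their values were seen, so their rises give it no support. Ly6g, the defining surface antigen of mouse neutrophils, had 9.54 and 8.65 in Id2-GFP+ CDP, against 5.36 and 5.26 in Id2-GFP- CDP, and Padi4, which citrullinates histones in neutrophils, had 9.06 and 7.77 in Id2-GFP+ CDP, against 6.57 and 5.88 in Id2-GFP- CDP.

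Primary granule genes, which are transcribed earlier in myeloid progenitors, did not move as one. Of 9 measured, 1 rose and 3 fell. Mpo, the myeloperoxidase gene, had 13.25 and 11.78 in Id2-GFP+ CDP, against 13.53 and 12.92 in Id2-GFP- CDP, and fell by 0.71 ± 0.18, the protease Ctsg fell by 0.92 ± 0.17 and the cystatin Cst7 by 0.76 ± 0.16. Ms4a3, a membrane protein of granulocyte-monocyte progenitors, had 10.85 and 8.67 in Id2-GFP+ CDP, against 8.60 and 7.06 in Id2-GFP- CDP, and rose by 1.93 ± 0.34. Its brighter Id2-GFP+ CDP array stood alone at the top. Elane, neutrophil elastase, had 12.27 and 9.98 in Id2-GFP+ CDP, against 10.75 and 8.93 in Id2-GFP- CDP, a difference of 1.29 ± 0.36 that did not pass. Leaving out single arrays ended the calls of Ms4a3 without either array of Id2-GFP- CDP, and Mpo, Ctsg and Cst7 without replicate 1 of Id2-GFP+ CDP or either array of Id2-GFP- CDP, and the highest adjusted p among them was 0.326.

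The phagocyte oxidase genes Cybb at 2.77 ± 0.22, Cyba at 0.94 ± 0.08 and Ncf4 at 0.82 ± 0.11 rose, which are 3 of 6 measured. They encode subunits of the complex that makes superoxide. Of 24 monocyte and macrophage genes 12 rose, 4 of them also without the block, and 2 fell. Lysozyme (Lyz2) had 11.45 and 10.99 in Id2-GFP+ CDP, against 8.51 and 8.27 in Id2-GFP- CDP, and the groups did not overlap. Fibronectin (Fn1) rose by 2.01 ± 0.25, the complement gene C1qb by 2.09 ± 0.26, Ms4a4c by 1.01 ± 0.12 and Ccr2, the receptor that draws monocytes from the marrow, by 0.89 ± 0.12. F13a1, a clotting factor subunit, had 10.71 and 9.68 in Id2-GFP+ CDP, against 11.63 and 10.96 in Id2-GFP- CDP, and fell by 1.11 ± 0.23. Cd14 (-0.51), Ms4a6c (0.15) and Adgre1 (0.48) did not pass. The threshold was no longer passed by F13a1 without replicate 1 of Id2-GFP+ CDP or either array of Id2-GFP- CDP, where the adjusted p reached 0.165. The count of monocyte and macrophage rises was 10 and 10 without Id2-GFP+ CDP replicates 1 and 2, and 6 and 12 without Id2-GFP- CDP replicates 1 and 2. The summed linear intensity of these 24 genes was 25033 and 21533 in Id2-GFP+ CDP, against 18002 and 17000 in Id2-GFP- CDP, and their part in the other differences was not tested.

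Genes of T, NK and innate lymphoid cells rose as well, at dim levels. Of 19 measured, 11 rose and 0 fell with a median of 0.69, and 1 rose without the block. Their median log2 intensity was 6.21 to 6.30 in Id2-GFP+ CDP and 5.39 to 5.405 in Id2-GFP- CDP. Over all probe sets the median was 6.12 to 6.23 on the CDP arrays, and no detection calls were used. Il2rb, the beta chain shared by the receptors of IL-2 and IL-15, had 7.94 and 7.38 in Id2-GFP+ CDP, against 5.39 and 5.41 in Id2-GFP- CDP. The groups did not overlap, and the difference was 2.26 ± 0.42. Ncr1, an activating receptor of NK cells, had 6.29 and 6.07 in Id2-GFP+ CDP, against 4.53 and 4.17 in Id2-GFP- CDP, and rose by 1.83 ± 0.15. Il18r1, a receptor of IL-18, rose by 2.09 ± 0.31, granzyme A (Gzma) by 1.37 ± 0.19, Thy1 by 1.08 ± 0.14 and the factor Tbx21 by 0.80 ± 0.13. Cd3e, which defines T cells, had 6.30 and 6.33 in Id2-GFP+ CDP, against 6.16 and 5.97 in Id2-GFP- CDP, and its difference of 0.25 ± 0.13 did not pass, nor did Gata3 (0.02) or Eomes (0.37). Single arrays decided the calls of Il18r1, lost without replicate 2 of Id2-GFP- CDP, Gzma, lost without replicate 1 of Id2-GFP- CDP, and Tbx21, lost without either array of Id2-GFP- CDP. The same held for Il2rb, lost without replicate 2 of Id2-GFP+ CDP or either array of Id2-GFP- CDP, and the highest adjusted p among them was 0.139. The summed linear intensity of the 19 genes was 1916 and 1814 in Id2-GFP+ CDP, against 1012 and 1070 in Id2-GFP- CDP. The count of rises was 10 and 7 without Id2-GFP+ CDP replicates 1 and 2, and 3 and 3 without Id2-GFP- CDP replicates 1 and 2, and the part of such cells in the other differences was not tested.

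Lists of other lineages held some changed genes, beside shares over all genes of 3.69% up and 4.17% down. Of 14 basophil, mast cell and eosinophil genes 2 rose, Hdc, which makes histamine, at 1.92 ± 0.16 and Prg2, the eosinophil major basic protein, at 2.66 ± 0.59. Of 19 B lineage genes 3 rose and 2 fell. Cd22, an inhibitory receptor, had 9.38 and 9.99 in Id2-GFP+ CDP, against 6.49 and 8.28 in Id2-GFP- CDP, and Fcrla rose by 1.16 ± 0.14, whereas the signalling adaptor Blnk fell by 1.09 ± 0.27. Cd79a, which defines B cells, had 5.19 and 4.72 in Id2-GFP+ CDP, against 4.84 and 4.33 in Id2-GFP- CDP, a difference of 0.37 ± 0.12 that did not pass. Of 12 erythroid and megakaryocyte genes 1 rose and 1 fell, Car1 at 0.62 ± 0.13 and the transferrin receptor Tfrc by 0.64 ± 0.13. Less stable were the calls of Prg2, Blnk and Tfrc, lost without replicate 1 of Id2-GFP+ CDP or either array of Id2-GFP- CDP, and Car1, lost without replicate 2 of Id2-GFP+ CDP or either array of Id2-GFP- CDP, and the highest adjusted p among them was 0.337.

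C-type lectin and toll-like receptors recognise microbial and cellular ligands. Of 22 C-type lectin receptors 10 rose, 3 of them also without the block, and 1 fell. The rises were led by Clec4a2 and Cd209a. Clec5a, an activating receptor of myeloid cells, rose by 2.09 ± 0.23, Clec4b1 by 1.49 ± 0.13 and Ly75 (DEC-205), an endocytic receptor, by 1.10 ± 0.14, while Clec2d, a ligand of NK receptors, fell by 0.63 ± 0.12. Of 19 toll-like receptor genes 6 rose, 2 of them also without the block, and 1 fell. Beyond Tlr3 and Tlr12 the rises were Tlr13, which senses bacterial ribosomal RNA, at 1.58 ± 0.14, Tlr4, the receptor of endotoxin, at 1.16 ± 0.21, Tlr8 at 0.99 ± 0.17 and Cd180 at 0.78 ± 0.17. The fall was the adaptor Ticam2, by 0.49 ± 0.13. Calls were lost for Clec2d, Tlr12 and Tlr4 without replicate 2 of Id2-GFP+ CDP or replicate 1 of Id2-GFP- CDP, Tlr8 without either array of Id2-GFP- CDP, and Cd180 without either array of Id2-GFP+ CDP or replicate 1 of Id2-GFP- CDP. The same held for Ticam2 without any single CDP array or either array of Id2-GFP- pre-CD8, and the highest adjusted p among them was 0.271.

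Of 14 Fc receptor genes 4 rose and 0 fell, among them Fcgr3 at 1.90 ± 0.16 and Fcgr4 at 1.55 ± 0.17, which bind IgG. Of 11 SLAM receptors 2 rose, beside 3.69% over all genes. Slamf7 had 8.44 and 8.07 in Id2-GFP+ CDP, against 4.63 and 5.73 in Id2-GFP- CDP, a difference of 3.07 ± 0.35. Of 17 costimulatory and inhibitory genes 5 rose and 0 fell. They included Cd86, a costimulator of T cells, at 1.49 ± 0.19, and the inhibitory receptors Lilrb4a at 2.59 ± 0.26 and Pirb at 2.10 ± 0.33. The ligands Cd80 (0.43), Cd40 (0.16) and Cd274 (-0.29) did not pass.

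Chemokine receptors and integrins set where such cells go. The share of rises over all genes, beside which their counts stand, was 3.69%. Of 22 chemokine and chemoattractant receptors 6 rose, 1 of them also without the block, and 0 fell. Beyond Ccr2 and Cxcr2 they were Ccr1 at 1.70 ± 0.19, the C5a receptor C5ar1 at 1.85 ± 0.23, Ccr3 at 1.23 ± 0.20 and Cxcr3 at 1.05 ± 0.28. Cxcr4, the marrow retention receptor, had a difference of 0.03 ± 0.05, and Ccr7, which guides dendritic cells to lymph nodes, of 0.39 ± 0.14, neither past the threshold. Of 19 integrins 3 rose, Itgb2, the shared beta chain of leukocyte integrins, at 2.25 ± 0.22, its partner Itgam at 1.68 ± 0.17 and Itgb7 at 1.36 ± 0.23, while Itgax (CD11c) had 0.25 ± 0.36. Of 17 annexin and S100 genes 10 rose, 3 of them also without the block, and 0 fell. Besides the calprotectin pair the rises included Anxa1 at 2.65 ± 0.14, Anxa2 at 1.28 ± 0.14 and S100a4 at 1.48 ± 0.25. The annexin and S100 count was 8 and 9 without Id2-GFP+ CDP replicates 1 and 2, and 4 and 9 without Id2-GFP- CDP replicates 1 and 2. Leaving out single arrays ended the calls of Ccr3, Itgb7 and S100a4 without replicate 1 of Id2-GFP- CDP, and Cxcr3 without any single CDP array, and the highest adjusted p among them was 0.29.

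Growth factor receptors had calls in both directions, with 3 of 31 up and 4 down, beside 3.69% and 4.17% over all genes. Flt3, the receptor whose ligand drives dendritic cell development, fell by 0.54 ± 0.09 (adjusted p 0.0044), and Csf1r by 0.70 ± 0.14 (adjusted p 0.0133), at the levels given above. Both Id2-GFP+ CDP arrays were below both Id2-GFP- CDP arrays for Flt3. Csf2ra, of the receptor of GM-CSF, rose by 0.84 ± 0.10, the decoy receptor Il1r2 by 2.50 ± 0.28 and Il13ra1 by 1.17 ± 0.26. The interferon receptor chain Ifnar1 fell by 0.59 ± 0.12 and Il10rb by 0.49 ± 0.10. Kit (0.10), Il7r (-0.63) and Csf2rb (0.16) did not pass. Of 14 SOCS and STAT genes, which regulate and carry these signals, 0 rose and 0 fell by limma. At the shares over all genes few calls would fall in a list of this size, so the count says little. Some of the 14 had an unadjusted p under 0.05 by the same test. The threshold was no longer passed by Flt3 without replicate 2 of Id2-GFP- CDP, Csf1r, Ifnar1 and Il10rb without replicate 1 of Id2-GFP+ CDP or either array of Id2-GFP- CDP, and Il13ra1 without either array of Id2-GFP+ CDP or replicate 1 of Id2-GFP- CDP, and the highest adjusted p among them was 0.213.

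Genes of early progenitors were lower in Id2-GFP+ CDP in part. Of 25 measured, 9 fell and 1 rose, with a median of -0.46, and 0 fell without the block. Cd93, a surface protein of early progenitors, had 10.95 and 10.64 in Id2-GFP+ CDP, against 11.81 and 11.58 in Id2-GFP- CDP, and fell by 0.90 ± 0.14. The stem cell factor Erg fell by 0.94 ± 0.17, the endothelial and stem cell gene Egfl7 by 0.95 ± 0.17, Hoxa9 by 0.61 ± 0.15 and Myb, which sustains progenitor proliferation, by 0.46 ± 0.12. Cd34 had 11.31 and 10.51 in Id2-GFP+ CDP, against 11.81 and 11.14 in Id2-GFP- CDP, and its difference of -0.57 ± 0.16 did not pass. Prom1, which encodes CD133, was the exception, with 7.43 and 6.39 in Id2-GFP+ CDP, against 4.55 and 4.64 in Id2-GFP- CDP and a rise of 2.32 ± 0.29. Falls numbered 2 and 11 without Id2-GFP+ CDP replicates 1 and 2, and 2 and 1 without Id2-GFP- CDP replicates 1 and 2. Single arrays decided the calls of Cd93, lost without replicate 1 of Id2-GFP- CDP, Erg, Egfl7 and Myb, lost without replicate 1 of Id2-GFP+ CDP or either array of Id2-GFP- CDP, and Hoxa9, lost without any single CDP array, and the highest adjusted p among them was 0.378.

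Myc and genes of ribosome assembly, which Myc activates, were lower. Myc had 11.10 and 9.86 in Id2-GFP+ CDP, against 11.95 and 10.75 in Id2-GFP- CDP, and fell by 0.87 ± 0.14 (adjusted p 0.00405). Of 10 Myc and Mxd genes 3 rose and 2 fell, and 0 passed without the block. The Myc antagonists Mxd1 and Mxd3 rose by 0.93 ± 0.16 and 1.07 ± 0.18, whereas the antagonist Mxd4 fell by 0.57. The Myc relative Mycl rose by 0.73. Of 25 ribosome biogenesis genes 16 fell and 0 rose, with a median of -0.51 and of -0.50 and -0.58 between the brighter and the dimmer arrays. Polr1b, a subunit of RNA polymerase I, had 9.39 and 8.17 in Id2-GFP+ CDP, against 10.24 and 9.20 in Id2-GFP- CDP, Nop2, a methyltransferase of ribosomal RNA, had 9.29 and 8.65 in Id2-GFP+ CDP, against 10.16 and 9.32 in Id2-GFP- CDP, and Rcl1, a processing factor, had 7.12 and 6.59 in Id2-GFP+ CDP, against 7.86 and 7.62 in Id2-GFP- CDP. These changes were small, and nucleolin (Ncl) fell by 0.34 ± 0.08. No ribosome biogenesis gene passed without the block. Its count of falls was 2 and 17 without Id2-GFP+ CDP replicates 1 and 2, and 1 and 2 without Id2-GFP- CDP replicates 1 and 2. Less stable were the calls of Myc, Mxd1, Mxd3 and Nop2, lost without replicate 1 of Id2-GFP- CDP, Rcl1, lost without replicate 2 of Id2-GFP- CDP, and Polr1b, lost without replicate 1 of Id2-GFP+ CDP or replicate 1 of Id2-GFP- CDP. The same held for Ncl, lost without replicate 1 of Id2-GFP+ CDP or either array of Id2-GFP- CDP, and the highest adjusted p among them was 0.247.

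Cell cycle genes moved by phase. Of 29 S phase genes 7 fell and 0 rose, with a median of -0.24, and of 33 genes of G2 and M phase 11 rose and 0 fell, with a median of 0.32. The replication licensing gene Mcm3 fell by 0.55 ± 0.11 and the licensing factor Cdt1 by 0.72 ± 0.13. The spindle gene Nusap1 rose by 0.72 ± 0.10, the ubiquitin-conjugating Ube2c by 0.60 ± 0.13 and the proliferation marker Mki67 by 0.40 ± 0.10. Among genes of the G1 control, the inhibitors Cdkn2c and Cdkn2d rose by 0.86 ± 0.16 and 1.00 ± 0.18, and the kinase Cdk6 fell by 0.74 ± 0.14. None of the S phase or the G2 and M phase genes passed without the block. The S phase count of falls was 0 and 3 without Id2-GFP+ CDP replicates 1 and 2, and 0 and 0 without Id2-GFP- CDP replicates 1 and 2. G2 and M phase rises numbered 1 and 4 without Id2-GFP+ CDP replicates 1 and 2, and 0 and 4 without Id2-GFP- CDP replicates 1 and 2. Calls were lost for Nusap1, Cdkn2c and Cdkn2d without replicate 1 of Id2-GFP- CDP, Mcm3, Cdt1, Ube2c and Cdk6 without replicate 1 of Id2-GFP+ CDP or either array of Id2-GFP- CDP, and Mki67 without either array of Id2-GFP+ CDP or replicate 1 of Id2-GFP- CDP, and the highest adjusted p among them was 0.354.

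Interferon-responsive genes were divided. Of 25 measured 5 rose and 2 fell, beside 3.69% and 4.17% over all genes, and 0 passed without the block. The RNA sensor Ddx58 (RIG-I) rose by 1.25 ± 0.17 and the oligoadenylate synthetases Oas2 and Oas3 by 1.23 ± 0.16 and 0.89 ± 0.16, while Ifit1 (-0.16), Mx1 (0.67) and Stat2 (0.25) did not pass. Of 9 guanylate-binding and immunity GTPases 3 fell and 1 rose. Gbp5, a GTPase of inflammasome responses, had 6.56 and 5.10 in Id2-GFP+ CDP, against 7.41 and 7.07 in Id2-GFP- CDP, and fell by 1.41 ± 0.23, Gbp3 fell by 1.09 ± 0.22 and Gbp7 by 0.85 ± 0.19, and Gbp9 rose by 0.97 ± 0.24. These paralogs are close in sequence, and a probe of one may bind RNA of another. Of 8 Ifi200 genes 3 rose, Ifi205 followed by Ifi207 at 1.64 ± 0.22 and Ifi203 at 0.85 ± 0.11. Leaving out single arrays ended the calls of Ddx58 and Ifi203 without replicate 1 of Id2-GFP- CDP, Gbp5 without replicate 2 of Id2-GFP- CDP, and Oas3 without either array of Id2-GFP- CDP. The same held for Gbp3 and Gbp7 without replicate 1 of Id2-GFP+ CDP or either array of Id2-GFP- CDP, and Gbp9 without replicate 2 of Id2-GFP+ CDP or either array of Id2-GFP- CDP, and the highest adjusted p among them was 0.273.

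The most strongly falling genes otherwise shared no list. Cd69, a lectin that holds cells in tissue by removing the receptor S1pr1 from the surface, had 9.24 and 7.86 in Id2-GFP+ CDP, against 10.40 and 9.42 in Id2-GFP- CDP, and fell by 1.36 ± 0.15. S1pr1 had 0.24 ± 0.14 and did not pass. Further falls were Adgrg7, an adhesion G protein-coupled receptor, by 1.31 ± 0.14, the protease Bace1 by 1.27 ± 0.20, the choline dehydrogenase Chdh by 1.27 ± 0.20, the dehydratase Pcbd1 by 1.25 ± 0.16 and the heparan sulfate proteoglycan Sdc1 by 1.21 ± 0.22. Of these Cd69, Adgrg7 and Pcbd1 kept their calls without each array in turn. The threshold was no longer passed by Bace1 without replicate 2 of Id2-GFP- CDP, Chdh without either array of Id2-GFP- CDP, and Sdc1 without replicate 1 of Id2-GFP+ CDP or either array of Id2-GFP- CDP, and the highest adjusted p among them was 0.112. Lists of metabolism and stress had few calls, in part above the shares over all genes of 3.69% up and 4.17% down. They were 16 cholesterol synthesis genes with 1 up and 1 down, 29 oxidative phosphorylation genes with 1 up and 3 down, 17 glycolysis genes with 1 up and 3 down, and 24 immediate early and stress genes with 1 up and 1 down.

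Finally the CDP difference was set beside the difference between Id2-GFP+ and Id2-GFP- pre-CD8, measured on 4 other arrays in the same way. There 4822 genes passed the test (24.2%), and 2197 of them rose and 2625 fell. Of the 735 CDP rises 560 also rose in pre-CD8, which is 76.2% of the CDP rises and 25.5% of the pre-CD8 rises, 32 fell there and 143 were not called. Of the 831 CDP falls 602 also fell, which is 72.4% of the CDP falls and 22.9% of the pre-CD8 falls, 8 rose and 221 were not called. The CDP difference in Id2 was 3.79 and the pre-CD8 difference 4.30. All 4 samples of the pre-CD8 groups have the Zbtb46-GFP genotype field, so that the genotype entry does not vary in that comparison. It varies within CDP alone, so a direct test of CDP against pre-CD8 cannot tell the population from that entry.

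A direct test of the CDP difference against the pre-CD8 difference passed for 1492 genes (7.48%), of which 278 were CDP rises and 122 were CDP falls, and for 29 genes without the block. Secondary granule genes were among those with a larger CDP difference. Ltf differed by 4.84 in CDP and 2.93 in pre-CD8 (adjusted p of the contrast 0.00193), and Camp by 4.29 and 2.81 (adjusted p 0.00766). Some cDC1 genes ran the other way. Clec9a differed by -0.02 in CDP and 4.29 in pre-CD8 (adjusted p 0.000429), Batf3 by 1.65 and 3.04 (adjusted p 0.00294) and Naaa by 2.55 and 4.45 (adjusted p 0.00101). Zeb2 differed by -1.22 in CDP and -2.26 in pre-CD8 (adjusted p 0.0204). H2-Aa differed by 4.97 and 3.94 (adjusted p 0.0399), while Cd74, at 4.40 and 3.80, did not pass (adjusted p 0.428). Without the block Clec9a passed the contrast (adjusted p 0.0397), and Ltf, Camp, Batf3, Naaa, Zeb2 and H2-Aa did not.

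**Figure D4:**
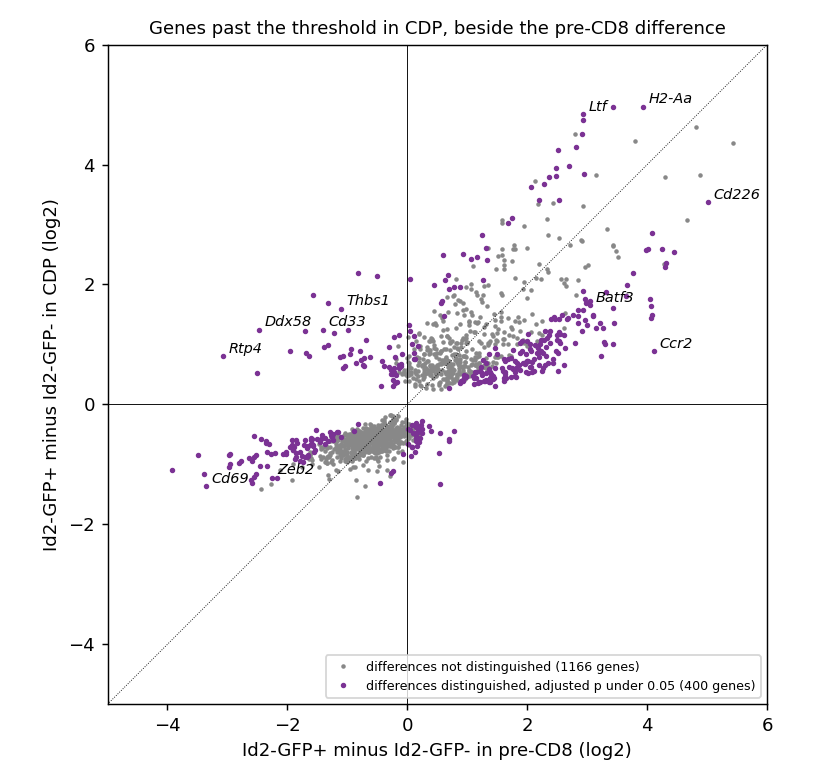
Difference between Id2-GFP+ and Id2-GFP- cells (log2) of the genes past the threshold in CDP, in CDP on the vertical and in pre-CD8 on the horizontal axis, with a dotted line where the differences are equal. Purple points are the 400 genes whose differences were distinguished by the direct test. Ltf and H2-Aa lie above the line, and Batf3, Cd226 and Ccr2 below it.

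Genes with the smallest p of that contrast included several that differed in pre-CD8 and hardly in CDP. Socs2, a feedback inhibitor of cytokine signalling, differed by 0.24 in CDP and -3.16 in pre-CD8, Rag2, of the recombinase of lymphocyte receptors, by 0.04 and -3.09, and Ms4a6c by 0.15 and 2.02. Ccr2 rose in CDP (0.89) and in pre-CD8 differed by 4.11, and Ddx58 differed by 1.25 and -2.47. All 5 passed the contrast, with adjusted p between 1.41e-05 and 3.67e-05. Without the block Ddx58 did not pass it (adjusted p 0.07), whereas Socs2 (0.00363) and Ccr2 (0.0135) did. Of the 33 genes of G2 and M phase, 32 passed this contrast, with a list median of 0.32 in CDP and 1.45 in pre-CD8. Nusap1 and Ube2c did not pass it without the block (adjusted p by limma 0.326 and 0.209). Genes of the early progenitor list had a median of -0.46 in CDP and -1.29 in pre-CD8.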

How the data were processed

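Total RNA was hybridised to Affymetrix mouse gene arrays, and the authors summarised it with RMA in Affymetrix Expression Console, per the submitters' processing notes, which give no versions. The deposited table holds linear intensities of 28853 probe sets on 8 arrays; the genome build is not given in the sources used here. No detection calls were used, and the precision is limited by the number of arrays. The deposited intensities were converted to log2 and not normalized again. Of the probe sets, 21789 had 1 gene symbol (21698 placed in RefSeq), 1621 had several and 5443 had none, and those with several or none were left out. For 999 genes with several probe sets the brightest on average was used, which gave 19938 genes.

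Differences were fitted with limma 3.58.1 (R 4.3.3) over all 8 arrays, with 4 group means, the array set as an additive block, eBayes with an intensity trend and Benjamini-Hochberg adjustment over all genes, two-sided, at an adjusted p under 0.05. The block rests on intensity and not on a label: deviations from the group mean correlated at 0.626 to 0.713 across genes between arrays of one set in all 6 pairs of groups, and replicate numbers of the labels gave values of both signs. The fit left 3 residual degrees of freedom. The procedure was tested in a single draw on simulated data with known changes and an array-set difference. With the block 11.1% of calls were false, above the nominal share, and without it 0% were. The fit without the block recovered 20% of changes of 1 log2 step and 94% of those of 2. With the block 100% of both were recovered.

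Genes were named by rule: Id2; up to 12 rising and 12 falling genes with the largest differences and no overlap between groups, leaving out predicted, olfactory, vomeronasal, microRNA, small nucleolar RNA and antigen receptor genes; up to 4 members of each list by p and described small families; a fixed set of regulators and markers; and up to 10 genes of the comparison with pre-CD8. The members and lists were chosen with earlier results of these data known. Alternatives dropped the block, used the labels' replicate number as block, quantile-normalized, added a pseudocount of 32, required a mean log2 of at least 6, averaged probe sets, fitted the CDP arrays alone, dropped the trend or left out each array. Promoter sequences are RefSeq's. Tables were handled with Python 3.11.15 and pandas 2.3.3, and figures drawn with matplotlib 3.10.9.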

Additional observations from a re-analysis of the deposited data

Results flagged for a closer look

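The comparison with pre-CD8 gave 1492 genes whose CDP difference was distinguished from the pre-CD8 difference by limma's interaction contrast (7.48% of genes, adjusted p under 0.05), and 96 of them are named above or below. Values here are the CDP difference minus the pre-CD8 difference on the log2 scale, each being Id2-GFP+ minus Id2-GFP-, so that a positive value means a more positive difference in CDP. Their adjusted p lay between 1.41e-05 and 0.046. Groups of 2 arrays are too small for a test of single outlying arrays. The genotype entry differs within CDP alone, so this contrast cannot tell the population from that entry. The value was positive for 56 genes and negative for 40. Ranges below cover those genes alone and not whole lists, and a gene of several lists may appear more than once. Among the cDC1 markers it ran from -4.31 for Clec9a to -0.51 for Wdfy4, with -2.08 for Rab7b, -1.96 for Tlr3, -1.90 for Naaa, -1.65 for Cd226, -1.39 for Batf3 and -1.06 for Irf8 between them. For the cDC2 markers the values ran from -1.98 for Klf4 to -1.36 for S100a4. In the shared conventional DC markers named they ran from -1.39 for Batf3 to 1.17 for Ccr7, with 0.57 for Flt3 between them. Among the early progenitor genes it ran from 0.57 for Flt3 to 1.83 for Erg, with 0.83 for Myb, 1.28 for Cd34, 1.64 for Egfl7, 1.75 for Cd93 and 1.75 for Hoxa9 between them. For the monocyte and macrophage genes the values ran from -3.22 for Ccr2 to -0.82 for Cd14, with -2.29 for Ms4a4c, -1.98 for Klf4 and -1.87 for Ms4a6c between them. In the primary granule genes named they ran from 1.15 for Cst7 to 1.24 for Mpo. Among the secondary granule and calprotectin genes it ran from 0.88 for Cd177 to 1.91 for Ltf, with 1.22 for Retnlg, 1.33 for S100a9, 1.35 for Mmp9, 1.47 for Camp, 1.53 for Chil3, 1.56 for Csf3r, 1.57 for Ngp, 1.57 for Cxcr2, 1.58 for S100a8, 1.74 for Pglyrp1 and 1.82 for Lcn2 between them. For the B lineage genes the values ran from -2.00 for Cd22 to 3.28 for Il7r, with -1.44 for Fcrla, 0.71 for Cd79a, 2.84 for Blnk and 3.13 for Rag2 between them. In the MHC class II genes named they ran from -1.68 for Ciita to 1.58 for H2-Ob, with -1.39 for H2-Eb1 and 1.03 for H2-Aa between them. Among the MHC class I processing genes it ran from -0.66 for Calr to 0.54 for B2m. For the cathepsins and lysosomal enzymes the values ran from -2.62 for Ifi30 to 1.39 for Ctsw, with -1.90 for Naaa and -0.83 for Cst3 between them. In the helix-loop-helix genes and partners named they ran from 0.74 for Ldb1 to 0.88 for Mxd4. Among the dendritic cell transcription factors it ran from -1.39 for Batf3 to 1.24 for Notch1, with -1.29 for Mycl, -1.24 for Bcl6, -1.20 for Spi1, -1.06 for Irf8, 1.04 for Nfil3 and 1.04 for Zeb2 between them. For the Myc and Mxd genes the values ran from -1.29 for Mycl to 0.88 for Mxd4, with -1.15 for Mxd3 between them. In the growth factor and cytokine receptors named they ran from -1.37 for Il13ra1 to 3.28 for Il7r, with -0.66 for Csf2ra, 0.57 for Flt3, 1.56 for Csf3r and 1.57 for Il1r2 between them. Among the chemokine receptors it ran from -3.22 for Ccr2 to 1.57 for Cxcr2, with 1.13 for S1pr1 and 1.17 for Ccr7 between them. For the C-type lectin receptors the values ran from -4.31 for Clec9a to -2.60 for Clec4b1. In the annexins and S100 genes named they ran from -1.88 for Anxa2 to 1.58 for S100a8, with -1.36 for S100a4 and 1.33 for S100a9 between them. Among the interferon response genes it ran from -0.72 for Bst2 to 3.88 for Rtp4, with 1.68 for Oas3, 2.08 for Ifit1, 2.93 for Oas2 and 3.72 for Ddx58 between them. For the G1 cyclins, kinases and inhibitors the values ran from -1.41 for Cdkn2c to -1.04 for Cdkn2d. In the G2 and M phase genes named they ran from -1.21 for Ube2c to -0.96 for Mki67, with -1.08 for Nusap1 between them. Among the remaining genes it was -2.42 for Ifi207, -1.48 for Itgb7, -0.87 for Thg1l, -0.86 for Snord73b, -0.52 for Cyba, 0.83 for Car1 and 1.24 for Hdc. Further values of these were 1.28 for Adgrg7, 1.28 for Lrg1, 1.35 for Sdc1, 1.42 for Ly6g, 1.90 for Cd63, 2.00 for Cd69 and 2.05 for Il18r1. Others of them were 2.65 for Gbp7, 2.70 for Thbs1, 3.02 for Padi4 and 3.41 for Socs2.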

How the results depend on the processing

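With the array set as a block, rises numbered 735 and falls 831, against 1026 and 1268 with the CDP arrays alone, 794 and 741 after quantile normalization, 732 and 1056 with a filter on dim genes and 617 and 605 without the intensity trend. Without the block they numbered 119 and 0, with a fit by the labels' replicate number as block 85 and 0, and with quantile normalization and no block 198 and 9, an alternative chosen after seeing the data. The direct comparison with pre-CD8 passed for 1492 genes with the block, 29 without it, 6 with the replicate block and 202 with quantile normalization and no block. Same-numbered CDP arrays deviated oppositely across genes (r = -0.654) and arrays of one set together (r = 0.654), so the numbers look crossed and the array set is the crossed pairing. Leaving out each array in turn gave 199 to 804 rises, 48 to 977 falls and 648 to 1459 genes in the direct comparison, and without the block, chosen after seeing the data, 35 to 126 rises, 0 to 1 falls and 2 to 15 genes. The Id2 difference stayed past the threshold in every fit with the array-set block, at 3.46 to 4.13 without each array in turn, and was 3.79 with the replicate block (adjusted p 0.0251), while without the block it ran from 3.21 to 4.37 with an adjusted p of at most 0.112 (without Id2-GFP- CDP replicate 1). Of 225 genes named, 119 lost their call without the block, 132 with the replicate block, 102 with quantile normalization and no block and 16 without the trend, and the cause was not tested. Without single CDP arrays 47 and 24 lost it for Id2-GFP+ replicates 1 and 2, and 75 and 52 for Id2-GFP- replicates 1 and 2. Signs turned only for genes that had not passed the test: after quantile normalization, with or without the block, Clec9a stood at 0.016, Cxcr4 at -0.0090, Gata3 at -0.050, Id3 at -0.038, Rag2 at -0.0058 and Rfxank at 0.012. Across fits without each array in turn the difference ran from -0.020 to 0.34 for Cd40, -0.36 to 0.085 for Cd8a, -0.47 to 0.42 for Clec9a, -0.092 to 0.42 for Csf2rb, -0.0024 to 0.060 for Cxcr4, -0.39 to 0.43 for Gata3, -0.21 to 0.44 for H2-Eb2, -0.19 to 0.21 for Id3, -0.14 to 0.061 for Id4, -0.62 to 0.31 for Ifit1, -0.013 to 0.18 for Irf8, -0.078 to 0.017 for Itgae, -0.47 to 0.96 for Itgax, -0.011 to 0.095 for Rag2, -0.20 to 0.093 for Rfxank, -0.13 to 0.26 for Rfxap, -0.23 to 0.040 for Sirpa, -0.0082 to 0.50 for Stat2, -0.12 to 0.44 for Stfa2, -0.14 to 0.21 for Uty and -0.18 to 0.37 for Xcr1. The CDP arrays alone give no direct comparison with pre-CD8. No detection call was used, so for dim genes the signal over background is unknown.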

Other observations

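Further genes were chosen after their values were seen, so their rises give no support to the lists above. Serpinb10, a serine protease inhibitor of myeloid progenitors, had 9.10 and 9.02 in Id2-GFP+ CDP, against 4.53 and 5.92 in Id2-GFP- CDP, a difference of 3.83 ± 0.31. Samd9l, an interferon-responsive growth regulator, had 10.23 and 10.49 in Id2-GFP+ CDP, against 5.73 and 7.54 in Id2-GFP- CDP, and rose by 3.72 ± 0.38. Alox5, which starts leukotriene synthesis, rose by 3.09 ± 0.25 and Cd63, a tetraspanin of granules and lysosomes, by 2.49 ± 0.13. Both arrays of Id2-GFP+ CDP lay above both of Id2-GFP- CDP for all 4. Some rises ran against the pre-CD8 difference. Thbs1, which encodes thrombospondin, rose by 1.60 ± 0.19 in CDP and differed by -1.11 in pre-CD8, and Rtp4, an interferon-induced chaperone of receptors, rose by 0.80 ± 0.19 and differed by -3.08. Calls were lost for Rtp4 without any single CDP array, where the adjusted p reached 0.299.

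Among the 21 falls that kept their calls without each array in turn were Pus7, a pseudouridine synthase, at -1.09 ± 0.14, Ddx51, a helicase of ribosomal RNA maturation, at -0.90 ± 0.12, Rpp38, a subunit of RNase P, at -0.84 ± 0.12, and Thg1l, which adds a guanine to transfer RNA, at -1.15 ± 0.15. Small nucleolar RNAs guide modification of ribosomal RNA. Of 51 small nucleolar RNA genes on the array 17 fell (33.3%) and 0 rose, against 4.17% that fell among all genes, with a median of -0.41 and of -0.36 and -0.43 between the brighter and the dimmer arrays. Snord37 had 5.60 and 4.24 in Id2-GFP+ CDP, against 6.89 and 5.66 in Id2-GFP- CDP, and Snord73b had 5.74 and 4.93 in Id2-GFP+ CDP, against 7.01 and 6.30 in Id2-GFP- CDP. C/D box genes had 11 of 31 that fell and H/ACA box genes 6 of 20. None of the 17 passed without the block, and 4 kept their calls without each array in turn. Of 67 ribosomal protein genes 10 fell (14.9%) and 0 rose. Of 291 microRNA genes 4 fell (1.4%) and 0 rose, which is below the 4.17% that fell among all genes. Without the block 0 of these falls passed in either family, and 0 kept their calls without each array in turn. These families were counted after the data were seen.

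On 1 array a few genes stood apart from all others. Mucl2, a mucin-like protein of salivary gland, had 9.24 on Id2-GFP+ CDP replicate 2 and at most 4.27 on the other 7 arrays. Scgb1b27, a secretoglobin of glands, had 8.46 there and at most 5.95 elsewhere. On that array 10 genes exceeded every other array by over 1.5 log2 steps, Ms4a3 among them, and 0 did so on each of the other 3 CDP arrays. Neither Mucl2 (adjusted p 0.117) nor Scgb1b27 (adjusted p 0.16) passed the test, and the part of these transcripts in other differences was not tested.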
